A study of Mus musculus with 20 samples.

Results

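The genes described here encode enzymes that make cholesterol, proteins that sense sterols and set the activity of those enzymes, and proteins that move cholesterol within the cell or limit its uptake. They were chosen by symbol from a list of cholesterol synthesis and uptake genes and number 29 of the 32081 genes in the expression table. The rule itself uses no measured value, but the list was drawn up with earlier results of these data known. All 29 had a mean of at least 0.5 FPKM over the 20 libraries and were among the 16848 genes tested. They comprise 8 genes of the mevalonate arm, 12 of the sterol arm, 5 regulators and 4 genes of transport and uptake.

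RNA was sequenced from the aortic endothelium of female Apoe-/- mice (strain B6.129P2-Apoetm1Unc/J), which lack the lipoprotein ligand apolipoprotein E and are prone to atherosclerosis. Every mouse in every group, the saline mice included, had a 5/6 nephrectomy at 9 weeks of age, a surgery used to model chronic kidney disease, and ate regular chow. A single retro-orbital injection followed 7 weeks after surgery, and tissue was taken 1 week later by lysing the luminal layer of the aorta off with qiazol. The 5 groups of 4 mice received HDL with both LNA92a and LNA489 (the dual group, 20 mg/kg of each inhibitor and 40 mg/kg in total), HDL with LNA489 (20 mg/kg), HDL with LNA92a (20 mg/kg), HDL alone, or saline, and the dose of HDL was 4 mg wherever it was given. An LNA inhibitor is a short oligonucleotide with locked sugars that binds a microRNA, here miR-92a-3p for LNA92a and miR-489-3p for LNA489. The groups named LNA92a, LNA489 and dual therefore all carried HDL, and none of these groups received an inhibitor without HDL or a control LNA. Each library carries its group's name and its mouse's number, and wherever 4 values are given for a group they run in the order dual 8, 10, 15 and 21, LNA489 7, 13, 14 and 19, LNA92a 5, 12, 17 and 18, HDL 3, 4, 11 and 23, and saline 1, 2, 9 and 24.

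Cells build cholesterol from acetyl-CoA through mevalonate, isoprenoid and squalene intermediates, and then convert lanosterol to cholesterol in a series of sterol steps. When membrane sterol falls, Scap carries the SREBP transcription factors from the endoplasmic reticulum to the Golgi, where they are cut and released to switch on the pathway, and the Insig proteins hold that complex back when sterol is plentiful. Endothelial cells and foam cells of an atherosclerotic aorta also take up lipoprotein cholesterol, which leaves the lysosome through Npc2 and Npc1. Adipose tissue, which surrounds the aorta, stores cholesterol, and the adrenal cortex, which lies near it, turns cholesterol into steroid hormones.

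The inhibited microRNAs have different seeds, the bases 2 to 8 that pair with targets, printed in capitals in these mature sequences from RefSeq (GRCm38.p6). They show which letters were searched for in the 3′ UTRs of the cholesterol genes.
mmu-miR-92a-3p: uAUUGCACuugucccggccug
mmu-miR-489-3p: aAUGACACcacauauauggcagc
The first lies at chr14:115044476-115044496 on the plus strand, with a second copy on chromosome X, and the other at chr6:3721922-3721944 on the minus strand. The complement of the miR-92a-3p seed, GTGCAAT, occurred in the annotated 3′ UTR of 4 of the 29 genes (13.8%), against 7.57% of 12860 genes searched the same way. The complement of the miR-489-3p seed, GTGTCAT, occurred in 2 of the 29 (6.9%), against 10.2%. These windows hold the matches in capitals, and a match of letters is not a measured target.
Insig1, GTGCAAT: aacttcaaGTGCAATgtgtatga
Mylip, GTGCAAT: ctcatcggGTGCAATactagcta
Nsdhl, GTGCAAT: cagtgatgGTGCAATgcaatggt
Sc5d, GTGCAAT: ttgcagtgGTGCAATctctaagt
Dhcr7, GTGTCAT: atagagagGTGTCATtgagtgtg
Sc5d, GTGTCAT: ttgcttgaGTGTCATgctgaggg
Sc5d held 3 GTGTCAT matches in a 3′ UTR of 3750 bases, of which the first is shown, and each of the other matches was single.

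Promoters of 24 of the 29 genes, 250 bases before to 50 after each RefSeq start, were searched on both strands for 4 motifs of sterol-regulated promoters. The sterol regulatory element, searched as TCACNCCAC, occurred in 1 of the 24 genes (4.17%), Hmgcs1, against 1.44% of 27025 genes. The CCAAT box, searched as CCAAT, occurred in 22 of 24 (91.7%) against 41.1% of all genes and 42.1% of the tested genes that had a promoter. The GC box GGGCGG also occurred in 22 of 24, against 38.2% of all and 65.6% of tested genes, and the E-box CACGTG in 5 (20.8%) against 8.09% and 11.3%. The promoters of Hmgcs1 (GRCm38.p6, chr13:119690101-119690400, plus strand) and Insig1 (chr5:28071162-28071461, plus strand) are shown because the levels of these genes moved together across the mice, with CCAAT boxes on either strand (CCAAT or ATTGG) and the sterol regulatory element in capitals.
Hmgcs1 promoter: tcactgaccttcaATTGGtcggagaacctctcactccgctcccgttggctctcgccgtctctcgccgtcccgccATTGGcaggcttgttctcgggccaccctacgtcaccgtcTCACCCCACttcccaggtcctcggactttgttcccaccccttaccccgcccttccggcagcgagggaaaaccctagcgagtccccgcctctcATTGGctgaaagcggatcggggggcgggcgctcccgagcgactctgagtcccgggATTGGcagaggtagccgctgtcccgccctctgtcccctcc
Insig1 promoter: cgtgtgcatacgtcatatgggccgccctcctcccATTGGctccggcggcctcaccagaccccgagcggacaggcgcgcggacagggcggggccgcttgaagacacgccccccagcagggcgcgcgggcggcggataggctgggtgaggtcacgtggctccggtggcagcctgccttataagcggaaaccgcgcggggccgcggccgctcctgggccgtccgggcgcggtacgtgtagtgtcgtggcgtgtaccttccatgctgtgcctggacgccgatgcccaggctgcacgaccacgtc
The sterol regulatory element of Hmgcs1 reads TCACCCCAC and spans positions -137 to -129, where 0 is the first transcribed base. Hmgcs1 holds 4 CCAAT boxes in this window and Insig1 holds 1, together with an E-box at -101 to -96, and no match of a motif overlaps another motif's match in these windows. The other promoters had no match to the sterol regulatory element as spelled here, which says only that these letters are not in the windows.

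Assigned reads numbered 11614441 to 21357104 per library. FPKM is scaled to all assigned reads, and between 3.25% and 22.4% of these fell on Rn18s-rs5, a ribosomal RNA gene, with the 3 highest shares in LNA92a 5, 17 and 18. That share lowers the FPKM of other genes in those libraries. Their size factors (the median ratio of a library's reads to the geometric mean of all libraries) were 0.530, 0.575 and 0.657, the lowest of all. LNA92a 17 (0.575) and HDL 3 (0.908) had similar numbers of assigned reads, 12123085 and 12354475. What else lowers FPKM there was not tested. Differences between groups were tested on the variance-stabilized values (log2 scale), which are not scaled to all assigned reads. Endothelial markers were present in every library (13 of 13 genes with reads in all 20), yet their summed level was 60.1 FPKM in the lowest mouse, HDL 4, and 2262 FPKM in the highest, HDL 23. Summed adipocyte markers ran from 49.1 FPKM in Saline 9 to 2214 FPKM in HDL 4, summed macrophage markers from 608.5 in LNA92a 17 to 10680 in LNA489 13, and summed adrenal cortex markers to 1746 in dual 10 and 2208 in Saline 2, with at most 29.98 in any of the remaining 18. Reads were present in all 20 libraries for 8 of 9 adipocyte, 10 of 10 macrophage and 2 of 9 adrenal cortex markers, and the adrenal enzyme gene Cyp11b1 was listed at 0 FPKM in LNA489 19, LNA92a 17 and Saline 24. HDL 11 had the highest summed B cell markers, 719 FPKM, and T cell markers, 225.5 FPKM. The other 19 mice had at most 101 and 92.9 FPKM of these. In such bulk RNA, fewer cells of a type and less RNA per cell cannot be told apart.

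Among the mevalonate arm, mean levels over the 20 mice ran from 18.98 FPKM for Hmgcs1, the synthase that makes HMG-CoA, to 0.530 FPKM for Fdps, which makes farnesyl diphosphate. Ggps1, the geranylgeranyl diphosphate synthase, averaged 10.6 FPKM, and Acat2, the cytosolic thiolase of the first step, 10.0 FPKM. The kinases Pmvk and Mvk averaged 5.92 and 2.86 FPKM, the decarboxylase Mvd 2.88 FPKM and the isomerase Idi1 0.804 FPKM. In the sterol arm the highest were Fdft1, squalene synthase, at 29.8 FPKM and Lbr, a sterol reductase of the nuclear envelope, at 17.0 FPKM. Next came the isomerase Ebp at 6.69 FPKM and the desaturase Sc5d at 5.23 FPKM, and Tm7sf2, a sterol reductase with the same reaction as Lbr, was the lowest of the arm at 0.713 FPKM. Lss (lanosterol synthase), Sqle (squalene epoxidase) and Hsd17b7 (a sterol ketoreductase) were also below 1 FPKM, at 0.940, 0.925 and 0.970 FPKM. The 5 regulators lay between 5.86 FPKM for Scap and 16.98 FPKM for Srebf1, and transport genes included the most abundant of the 29, Npc2, the lysosomal sterol-binding protein, at 75.8 FPKM.

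**Figure D1:**
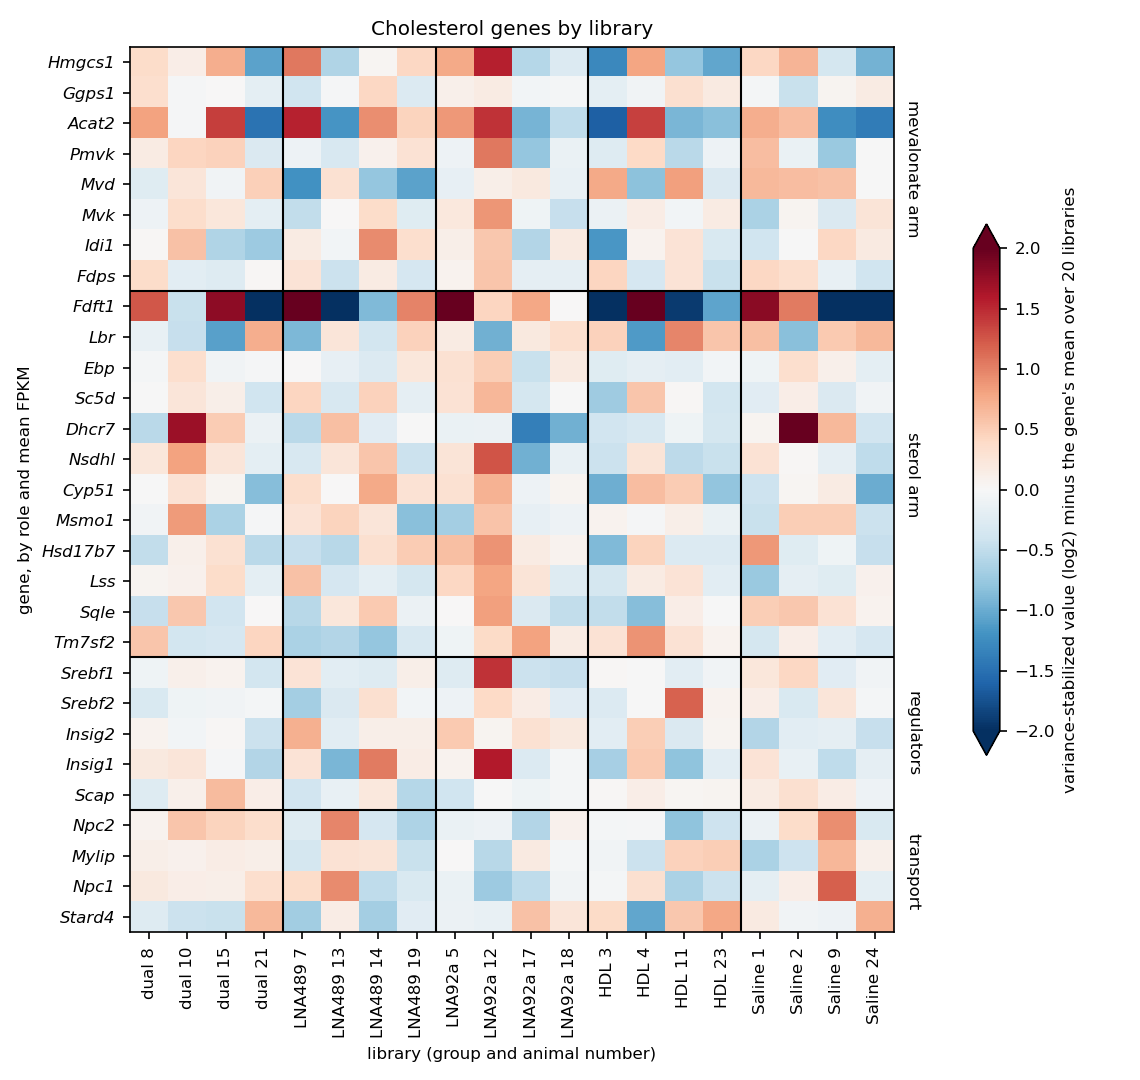
Each gene (rows, by role and mean FPKM) in each library (columns, by group), as the variance-stabilized log2 value minus the gene's own mean over 20 libraries, with colours saturating at 2. The mean over the 29 genes was highest in LNA92a 12 (8.83) and lowest in HDL 3 (7.99), and Dhcr7 stood out in dual 10 and Saline 2.

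Levels varied widely over the 20 mice. Fdft1 ran from 3.18 FPKM in Saline 9 to 108 FPKM in HDL 4, a 33.9-fold range, Idi1 over a 23.95-fold range and Dhcr7, the last enzyme of one branch, over a 21.25-fold range, whereas Ggps1 and Insig2 stayed within 2.48-fold and 2.54-fold. LNA92a 12 held the highest level of 11 of the 29 genes. Reads behind the lowest genes were few, with 4 to 154 reads per library for Idi1 and 12 to 81 for Tm7sf2. Several genes share sequence or exons with others, and the strand of counting was not given in the sources used here. Acat2 shares 65.6% of its transcript with Acat3 or Tcp1, Fdps 91.4% with 6 other genes, and Fdft1 overlaps Ctsb on the opposite strand and shares 54.7% with Ctsb or Gm6781, so the levels of these 3 are uncertain. Smaller shared parts were found in Idi1 (33.3%), Ggps1 (27.3%, Arid4b and Gm5630), Scap (18.9%), Hmgcs1 (16.2%), Lbr (12.5%), Npc1 (9.92%), Insig1 (7.01%), Lss (5.59%), Cyp51 (4.22%) and Srebf1 (2.54%), and Tm7sf2 has exons overlapping Vps51 on the same strand.

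LNA489 was compared with HDL to ask what the inhibitor of miR-489-3p added to HDL. The lowest p of any of the 29 genes in any comparison was that of Tm7sf2 (chr19:6062821-6068373, GRCm38), which was low in all 4 LNA489 mice. Tm7sf2 had 1.21, 0.484, 0.423 and 1.28 FPKM in the dual mice, 0.220, 0.318, 0.230 and 0.399 in LNA489, 0.395, 1.00, 1.09 and 0.667 in LNA92a, 0.999, 1.46, 1.12 and 0.788 in HDL and 0.362, 0.720, 0.594 and 0.5 in saline mice. All 4 LNA489 values lie under all 4 HDL values, at 0.292 ± 0.0840 FPKM in LNA489 and 1.09 ± 0.282 FPKM in HDL (SD, n = 4 each). These values rest on few reads, 12, 17, 16 and 18 in LNA489 and 43, 81, 58 and 36 in HDL. The difference was -0.96 ± 0.27 (SE) on the variance-stabilized log2 scale, with a limma adjusted p of 0.920 over all 16848 genes, so it did not pass. It was -0.95 ± 0.36 with the endothelial, adipocyte, macrophage and adrenal cortex list means as covariates, so it was of the same size with marker levels in the model. Over all alternatives it lay between -1.86 (voom on recovered reads) and -0.69, with an adjusted p of 0.216 to 1.00. Vps51, whose exons overlap, differed by 0.13 ± 0.17.

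Mvd, the decarboxylase that ends the mevalonate steps, was the other gene with an unadjusted p under 0.05 in LNA489. Mvd had 1.91, 3.83, 2.35 and 4.62 FPKM in the dual mice, 0.446, 3.75, 1.19 and 0.623 in LNA489, 1.39, 2.72, 2.08 and 1.76 in LNA92a, 5.40, 0.811, 6.43 and 2.01 in HDL and 4.00, 4.08, 5.19 and 2.94 in saline mice. LNA489 13 had 3.75 FPKM and the other LNA489 mice at most 1.19 FPKM, and HDL mice ranged from 0.811 to 6.43 FPKM, so the groups overlapped. The difference was -0.81 ± 0.37 (limma adjusted p = 0.920), and -0.53 ± 0.37 with the 4 list means as covariates. Mvd had 13 to 177 reads per library, with 13 in LNA489 7 and 15 in LNA489 19. Idi1, which interconverts the isoprenoid building blocks, was the third by p. Idi1 had 0.710, 1.63, 0.305 and 0.282 FPKM in the dual mice, 0.729, 0.744, 2.20 and 0.970 in LNA489, 0.540, 1.24, 0.212 and 0.712 in LNA92a, 0.0920, 0.645, 1.157 and 0.522 in HDL and 0.360, 0.638, 1.34 and 1.04 in saline mice. Its highest value was in LNA489 14 and its lowest in HDL 3, and the difference was 0.63 ± 0.36 (limma adjusted p = 0.920). In all, 18 of the 29 genes were higher and 11 lower in LNA489, with a median difference of 0.12 beside -0.05 over all genes tested. Of all genes tested, 44.8% were higher. None of the 29 and none of all genes (0%) passed at an adjusted p under 0.05 with limma, and neither did any with voom. At an unadjusted p under 0.05 there were 2 of 29 (6.90%) and 638 of 16848 genes (3.79%), and on the variance-stabilized scale groups did not overlap for 1 of 29, Tm7sf2, and for 1.54% of all genes. Dhcr7 and Sc5d, which hold the GTGTCAT letters printed above, differed by 0.24 ± 0.49 and 0.22 ± 0.28.

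**Figure D2:**
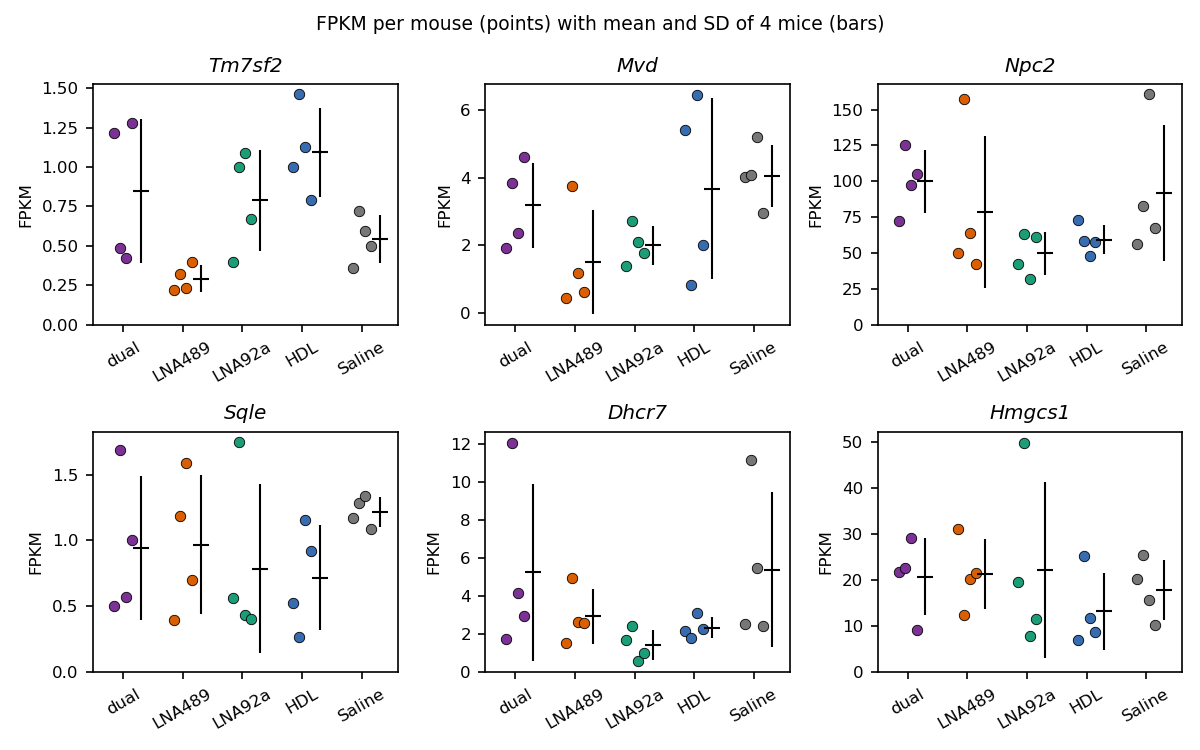
FPKM of 6 genes in each mouse (points) with the mean and SD of the 4 mice of a group (bars beside the points). Tm7sf2 lies at 0.22 to 0.399 FPKM in LNA489, below every HDL mouse, while Sqle, Dhcr7 and Hmgcs1 overlap between all groups that received HDL.

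Comparing the dual group with HDL asked what both inhibitors together added. Npc2 was the one gene with an unadjusted p under 0.05. Npc2 had 72.3, 125, 97.3 and 105 FPKM in the dual mice, 50.1, 157, 64.2 and 42.5 in LNA489, 42.2, 63.0, 31.9 and 61.2 in LNA92a, 73.0, 58.0, 48.1 and 57.6 in HDL and 56.3, 82.8, 161 and 67.5 in saline mice. It averaged 99.97 ± 21.9 FPKM in the dual group and 59.2 ± 10.3 FPKM in HDL (SD, n = 4 each), and the lowest dual mouse lay just under the highest HDL mouse in FPKM, while on the variance-stabilized scale the groups did not overlap. The difference was 0.67 ± 0.32 (limma adjusted p = 0.998). Macrophage list means were 11.05 to 11.75 in the dual group and 9.37 to 11.07 in HDL, summed macrophage markers were 2932 to 8618 FPKM in the dual group and 855 to 3086 FPKM in HDL, and all 10 markers had reads in every library. With the 4 list means as covariates the difference of Npc2 was 0.01 ± 0.18.

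Nsdhl, a sterol dehydrogenase that removes methyl groups, and Dhcr7 followed by p. Nsdhl had 3.17, 6.33, 3.33 and 2.60 FPKM in the dual mice, 1.68, 3.73, 4.94 and 1.65 in LNA489, 2.20, 7.22, 0.694 and 1.90 in LNA92a, 1.90, 2.80, 1.94 and 1.93 in HDL and 2.97, 2.47, 2.68 and 1.97 in saline mice. Dual 10 was the highest of its group, and the difference of 0.55 ± 0.38 (limma adjusted p = 0.998) was -0.05 ± 0.37 with the 4 list means as covariates. Dhcr7 had 1.74, 12.1, 4.16 and 2.94 FPKM in the dual mice, 1.504, 4.94, 2.64 and 2.56 in LNA489, 1.64, 2.42, 0.567 and 0.991 in LNA92a, 2.16, 1.78, 3.08 and 2.27 in HDL and 2.52, 11.1, 5.43 and 2.39 in saline mice. Dual 10 had 12.1 FPKM and Saline 2 had 11.1 FPKM of Dhcr7, the libraries rich in adrenal cortex markers, and every other mouse had at most 5.43 FPKM. The dual group differed from HDL by 0.68 ± 0.49 (limma adjusted p = 0.998), and by 0.09 ± 0.31 with the 4 list means as covariates. In the dual group 20 of 29 genes were higher and 9 lower than in HDL, with a median of 0.09 beside -0.03 over all genes. Of all genes tested, 46.4% were higher. With limma 0 of 29 and 0% of all genes passed, also with voom. At an unadjusted p under 0.05 stood 1 of 29 (3.45%) and 2.47% of all genes, and on the variance-stabilized scale groups did not overlap for Npc2 and for 1.88% of all genes.

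LNA92a was compared with HDL to ask what the inhibitor of miR-92a-3p added. The 3 genes with the lowest p averaged higher in LNA92a, and LNA92a 12 was the highest mouse for each. Hsd17b7 had 0.532, 1.24, 1.25 and 0.593 FPKM in the dual mice, 0.475, 0.562, 1.44 and 1.39 in LNA489, 1.08, 2.03, 0.743 and 0.809 in LNA92a, 0.349, 1.19, 0.834 and 0.762 in HDL and 1.79, 0.650, 1.00 and 0.667 in saline mice. Hmgcs1 had 21.8, 22.6, 29.1 and 9.06 FPKM in the dual mice, 31.0, 12.4, 20.1 and 21.4 in LNA489, 19.5, 49.8, 7.71 and 11.4 in LNA92a, 6.99, 25.2, 11.6 and 8.68 in HDL and 20.1, 25.4, 15.6 and 10.2 in saline mice. Insig1 had 11.0, 14.0, 9.68 and 7.23 FPKM in the dual mice, 10.2, 5.35, 23.9 and 10.2 in LNA489, 6.79, 29.8, 5.41 and 7.76 in LNA92a, 6.25, 12.0, 6.31 and 9.12 in HDL and 10.4, 8.00, 7.82 and 10.2 in saline mice. In LNA92a 12 Hmgcs1 reached 49.8 FPKM and Insig1, a retention factor for the SREBP complex, 29.8 FPKM, the highest values of both genes, whereas LNA92a 17 lay under all HDL mice for Insig1 in FPKM and above HDL 3 and HDL 11 on the variance-stabilized scale. The differences were 0.68 ± 0.36 for Hsd17b7, 0.94 ± 0.54 for Hmgcs1 and 0.62 ± 0.42 for Insig1, each with a limma adjusted p of 0.867. The size of the difference was largest for Fdft1, at 1.48 ± 1.20, although its mean FPKM was 30.6 in LNA92a and 31.3 in HDL. Over all alternatives the difference of Hmgcs1 was 0.25 to 1.40 and that of Insig1 0.12 to 0.89. Adipocyte list means were 9.91 to 12.4 in LNA92a and 7.67 to 12.1 in HDL, and summed adipocyte markers were 406.5 to 1803 FPKM in LNA92a and 64.2 to 2214 FPKM in HDL. With the 4 list means as covariates the differences were 0.45 ± 0.34 for Hsd17b7, 0.25 ± 0.26 for Hmgcs1 and 0.12 ± 0.36 for Insig1.

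Scap, the escort of the SREBPs, was the one gene whose LNA92a and HDL mice did not overlap on the variance-stabilized scale, on which its difference was -0.20 ± 0.20 (limma adjusted p = 0.867). Scap had 4.66, 7.42, 9.21 and 7.38 FPKM in the dual mice, 3.67, 5.78, 7.67 and 3.52 in LNA489, 2.83, 5.47, 3.69 and 4.57 in LNA92a, 6.22, 5.31, 7.10 and 6.52 in HDL and 5.61, 6.64, 7.63 and 6.35 in saline mice. In FPKM, LNA92a 12 exceeded HDL 4, so the groups did overlap there. On the variance-stabilized scale, 18 genes were higher and 11 lower in LNA92a than in HDL. The median of the 29 was 0.14, beside -0.06 over all genes tested, of which 44.2% were higher. In FPKM several of the 18 averaged lower in LNA92a instead, such as Sc5d at 4.81 FPKM beside 5.05 FPKM in HDL. None passed with limma or voom among the 29 or among all genes (0%), 0 of 29 had an unadjusted p under 0.05 where 595 of all genes (3.53%) did, and on that variance-stabilized scale groups did not overlap for 1 of 29 and 2.22% of all genes. Of the genes with the GTGCAAT letters, Insig1, Nsdhl (0.38 ± 0.38) and Sc5d (0.27 ± 0.28) were on the higher side in LNA92a, and Mylip, the ligase that marks lipoprotein receptors for breakdown, was on the lower side (-0.21 ± 0.28). All 4 differences were under 2 SE.

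HDL was compared with saline to ask what HDL alone did. Tm7sf2, whose values are given above, averaged higher in HDL, at 1.09 ± 0.282 FPKM in HDL and 0.544 ± 0.151 FPKM in saline, with a difference of 0.58 ± 0.27 (limma adjusted p = 0.9997). In FPKM the lowest HDL mouse, HDL 23 at 0.788, lay just above the highest saline mouse, Saline 2 at 0.72, while on the variance-stabilized scale the order of these 2 was the other way. Sqle, the epoxidase that commits squalene to sterols, was on the lower side. Sqle had 0.503, 1.69, 0.568 and 1.00 FPKM in the dual mice, 0.391, 1.19, 1.59 and 0.696 in LNA489, 0.559, 1.75, 0.431 and 0.404 in LNA92a, 0.525, 0.261, 1.158 and 0.921 in HDL and 1.17, 1.28, 1.34 and 1.08 in saline mice. HDL 11 was the only HDL mouse within the saline range, and the difference was -0.65 ± 0.33 (limma adjusted p = 0.9997), on 23 to 200 reads per library. Dhcr7 differed by -0.86 ± 0.49 (limma adjusted p = 0.9997), a value with Saline 2 in it, and by -0.20 ± 0.28 with the 4 list means as covariates.

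The HDL group lay lower than saline for 21 of 29 genes and higher for 8, with a median of -0.07 beside 0.03 over all genes. Of all genes tested, 54.0% were higher in HDL. With limma and with voom 0 of 29 and 0% of all genes passed, and at an unadjusted p under 0.05 stood 1 of 29 (3.45%) and 1.67% of all genes. No gene of the 29 had groups that did not overlap on the variance-stabilized scale, beside 0.973% of all genes. The same HDL mice enter all 4 of these comparisons, so their directions are tied to each other. For Tm7sf2 the values side by side are -0.32 for the dual group, -0.96 for LNA489 and -0.07 for LNA92a, each against HDL, and 0.58 for HDL against saline.

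**Figure D3:**
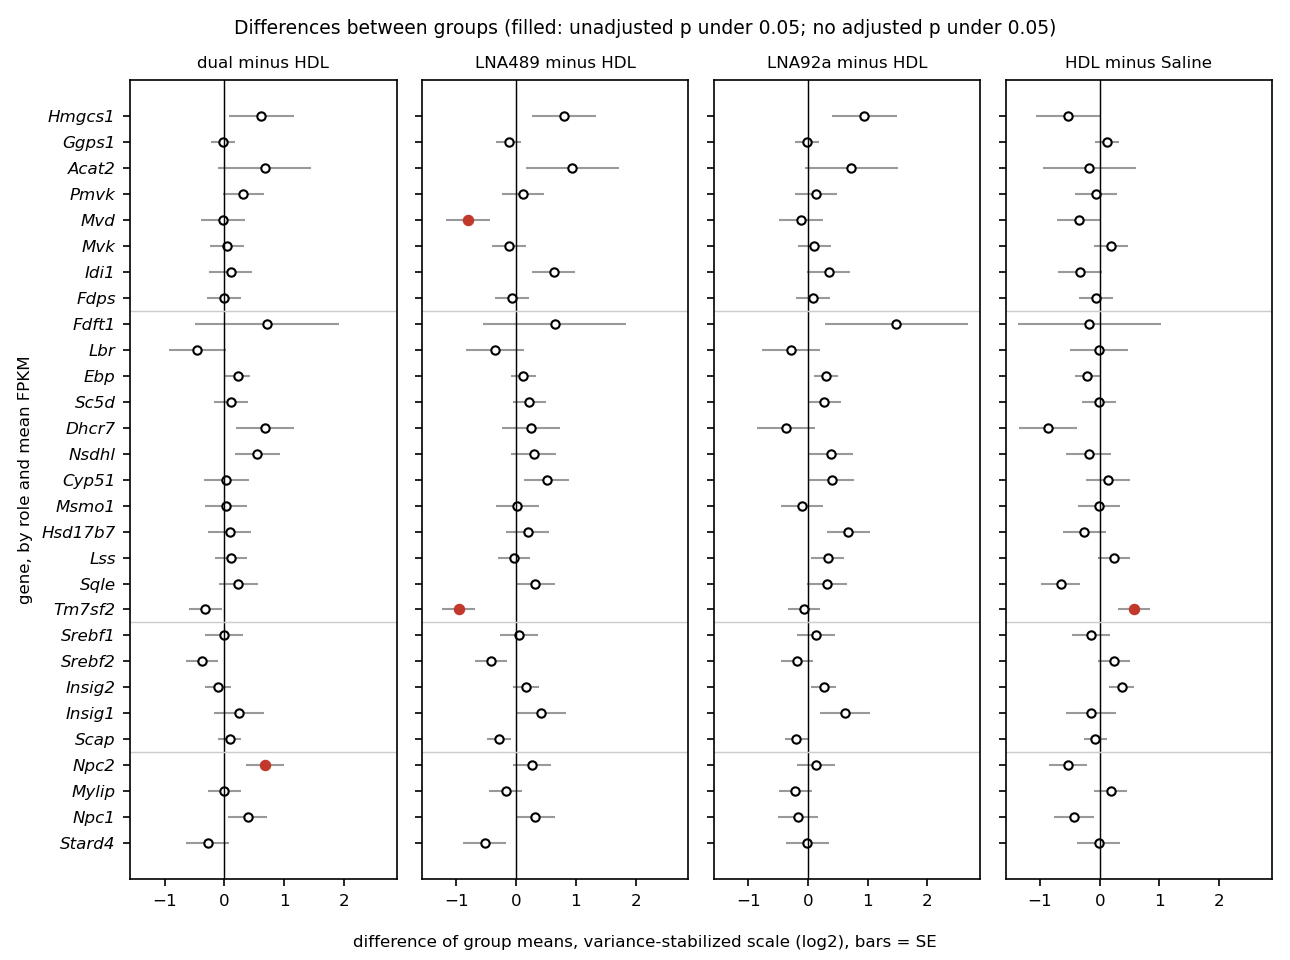
Difference of group means on the variance-stabilized log2 scale with its SE, for each gene (rows) in the 4 main comparisons (panels), with filled points at an unadjusted p under 0.05. The filled points are Npc2 in the dual group, Mvd and Tm7sf2 in LNA489 and Tm7sf2 in HDL, and no gene passed after adjustment.

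The dual group against saline tested the whole treatment. Sqle differed by -0.42 ± 0.33, Lss by 0.35 ± 0.27 and Insig2 by 0.26 ± 0.22, the 3 lowest p of the list, and 0 of 29 had an unadjusted p under 0.05 where 177 of all genes (1.05%) did. No gene of the 29 had groups without overlap on the variance-stabilized scale, beside 0.962% of all genes. The non-additive contrast, the dual group minus both single-inhibitor groups plus HDL, asked whether the inhibitors together differed from the sum of each. Its lowest p were those of Scap at 0.57 ± 0.28, Tm7sf2 at 0.72 ± 0.38 and Insig2 at -0.54 ± 0.30, each with a limma adjusted p of 0.930. Here 0 of 29 and 3.15% of all genes had an unadjusted p under 0.05. Over the 5 groups together the F-test gave its lowest p to Tm7sf2 (F = 4.25), followed by Mvd (F = 2.62) and Insig2 (F = 2.60), all with a limma adjusted p of 0.9997. That was 1 of 29 at an unadjusted p under 0.05, beside 1.68% of all genes. In the 3 tests limma and voom called 0 genes after adjustment.

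No regulator passed in any comparison between groups. Srebf2 had 9.16, 13.2, 11.3 and 13.3 FPKM in the dual mice, 6.10, 10.8, 16.9 and 10.5 in LNA489, 7.23, 15.0, 8.95 and 8.18 in LNA92a, 10.2, 9.80, 32.6 and 13.6 in HDL and 11.2, 8.64, 16.7 and 13.6 in saline mice. Srebf2, the SREBP that drives sterol synthesis, was highest in HDL 11 at 32.6 FPKM, and its differences against HDL were -0.37 ± 0.27 in the dual group, -0.42 ± 0.27 in LNA489 and -0.19 ± 0.27 in LNA92a. HDL 11, the mouse richest in B and T cell markers, was also the highest for Lbr and Mvd. B and T cell lists were not among the 4 lists used as covariates, and their part was not tested. Srebf1 had 15.0, 21.1, 17.3 and 14.6 FPKM in the dual mice, 16.9, 15.8, 15.5 and 16.5 in LNA489, 8.97, 43.7, 8.20 and 9.55 in LNA92a, 17.7, 13.6, 16.9 and 16.9 in HDL and 16.6, 20.0, 16.5 and 18.4 in saline mice. Srebf1, the SREBP better known for fatty acid genes, stood at 43.7 FPKM in LNA92a 12 and at no more than 9.55 FPKM in the other LNA92a mice. Its largest difference among the 4 main comparisons was -0.15 ± 0.31, for HDL against saline. Insig2 had 11.6, 13.0, 11.6 and 9.52 FPKM in the dual mice, 16.0, 10.8, 14.1 and 11.4 in LNA489, 11.0, 11.3, 9.64 and 10.6 in LNA92a, 10.3, 13.5, 10.9 and 12.8 in HDL and 6.33, 8.84, 11.7 and 9.50 in saline mice. Insig2, a second retention factor beside Insig1, was lowest in Saline 1 and differed by 0.37 ± 0.22 in HDL against saline (limma adjusted p = 0.9997).

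Npc1, the lysosomal membrane protein that receives cholesterol from Npc2, resembled Npc2 in its order of mice. Npc1 had 13.5, 15.9, 13.2 and 17.7 FPKM in the dual mice, 13.3, 26.4, 9.61 and 9.02 in LNA489, 7.25, 6.92, 5.72 and 9.37 in LNA92a, 12.5, 12.7, 9.24 and 9.66 in HDL and 9.11, 12.1, 33.1 and 12.4 in saline mice. The highest mice were Saline 9 and LNA489 13, as for Npc2. The differences of Npc1 were 0.39 ± 0.33 in the dual group against HDL, 0.32 ± 0.33 in LNA489, -0.16 ± 0.33 in LNA92a and -0.43 ± 0.33 for HDL against saline. Stard4 had 2.16, 2.31, 1.93 and 5.33 FPKM in the dual mice, 1.31, 3.44, 1.78 and 2.12 in LNA489, 1.65, 2.36, 2.98 and 2.73 in LNA92a, 3.96, 0.934, 5.00 and 5.45 in HDL and 2.74, 2.37, 3.01 and 5.65 in saline mice. Stard4, a soluble carrier of sterols, was highest in Saline 24, HDL 23 and dual 21, all rich in endothelial markers, and lowest in HDL 4. Not every mouse followed that order. HDL 11 had 5.00 FPKM at an endothelial list mean of 9.47, and LNA92a 18 had 2.73 FPKM at 11.70. Its differences against HDL were -0.28 ± 0.36, -0.53 ± 0.36 and -0.02 ± 0.36 in the dual, LNA489 and LNA92a groups.

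Mouse-to-mouse differences within groups followed the marker lists for a share of the genes. The slope of each gene on the mean of a list was fitted with the 5 group means in the model, as log2 units of the gene per log2 unit of the list mean. With fat markers, 7 genes had a positive slope and 3 a negative one at an adjusted p under 0.05, which is 10 of 29 (34.5%) beside 39.8% of all genes tested (18.9% positive, 20.9% negative). The share of the cholesterol genes is thus near that of all genes. Fibroblast and brown fat list means were low and high in many of the same mice as the adipocyte list mean. In Saline 9 the adipocyte, fibroblast and brown fat means were 6.94, 8.73 and 6.12, and in HDL 4 they were 12.06, 13.03 and 11.43. No slope was fitted on those 2 lists, so whether the slopes are particular to adipocyte markers was not tested. The 3 steepest were Acat2 (0.61 ± 0.05, limma adjusted p = 4.8e-08), Fdft1 (0.91 ± 0.10, adjusted p = 1.2e-06) and Hmgcs1 (0.39 ± 0.06, adjusted p = 2.0e-05). Acat2 had 14.3, 9.33, 22.4 and 2.65 FPKM in the dual mice, 21.4, 3.33, 18.3 and 10.4 in LNA489, 10.1, 22.5, 2.53 and 4.33 in LNA92a, 2.07, 18.5, 4.52 and 4.38 in HDL and 12.0, 11.6, 3.34 and 2.89 in saline mice. Fdft1 had 43.3, 15.9, 65.8 and 4.11 FPKM in the dual mice, 69.2, 4.26, 10.9 and 34.6 in LNA489, 61.4, 24.0, 21.8 and 15.0 in LNA92a, 3.54, 108, 5.03 and 9.12 in HDL and 57.3, 35.0, 3.17 and 4.23 in saline mice. In the 7 mice with the lowest adipocyte list means (dual 21, LNA489 13, HDL 3, 11 and 23, and Saline 9 and 24) Fdft1 was at most 9.12 FPKM and Acat2 at most 4.52 FPKM, and Fdft1 was at least 10.9 FPKM in all 13 others. For Acat2 the 13 others were not set apart, since LNA92a 17 had 2.53 FPKM and LNA92a 18 had 4.33 FPKM.

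Insig1 (0.24 ± 0.06), Pmvk (0.19 ± 0.05), Hsd17b7 (0.18 ± 0.06) and Sc5d (0.15 ± 0.04) also rose with fat markers, while Lbr (-0.29 ± 0.07), Stard4 (-0.20 ± 0.05) and Mylip (-0.14 ± 0.04) fell. Lbr had 13.3, 13.1, 6.89 and 29.7 FPKM in the dual mice, 6.71, 20.2, 13.3 and 19.6 in LNA489, 11.2, 7.21, 11.9 and 15.7 in LNA92a, 22.2, 5.53, 36.4 and 24.6 in HDL and 20.1, 7.49, 26.0 and 28.4 in saline mice. Lbr was at most 7.49 FPKM in dual 15, LNA489 7, LNA92a 12, HDL 4 and Saline 2, each with an adipocyte list mean of at least 11.54. LNA92a 5 and Saline 1 had list means as high, of 11.78 in LNA92a 5 and 11.76 in Saline 1, with 11.2 FPKM of Lbr in LNA92a 5 and 20.1 FPKM in Saline 1. Without HDL 4 the slopes of Stard4 (-0.14), Sc5d (0.12) and Hsd17b7 (0.16) no longer passed in limma, and without Saline 9 that of Mylip (-0.11) did not. On log2(FPKM + 0.1) the slopes of Insig1, Pmvk, Sc5d and Hsd17b7 did not pass (0.19, 0.16, 0.09 and 0.17), and with all 4 list means in 1 model those of Insig1, Stard4, Sc5d, Mylip and Hsd17b7 did not (0.27, -0.13, 0.05, -0.20 and 0.09). Of the genes that share sequence with Acat2 and Fdft1, 2 were read for their slope on fat markers. Acat3, at 0.107 to 2.75 FPKM, had a called slope of the same sign as that of Acat2 (0.20 ± 0.06, limma adjusted p = 0.0136), and Ctsb, at 109 to 2564 FPKM, a called slope of the opposite sign to that of Fdft1 (-0.40 ± 0.10, limma adjusted p = 0.0049). Acat3 and Ctsb were picked after their values were seen.

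**Figure D4:**
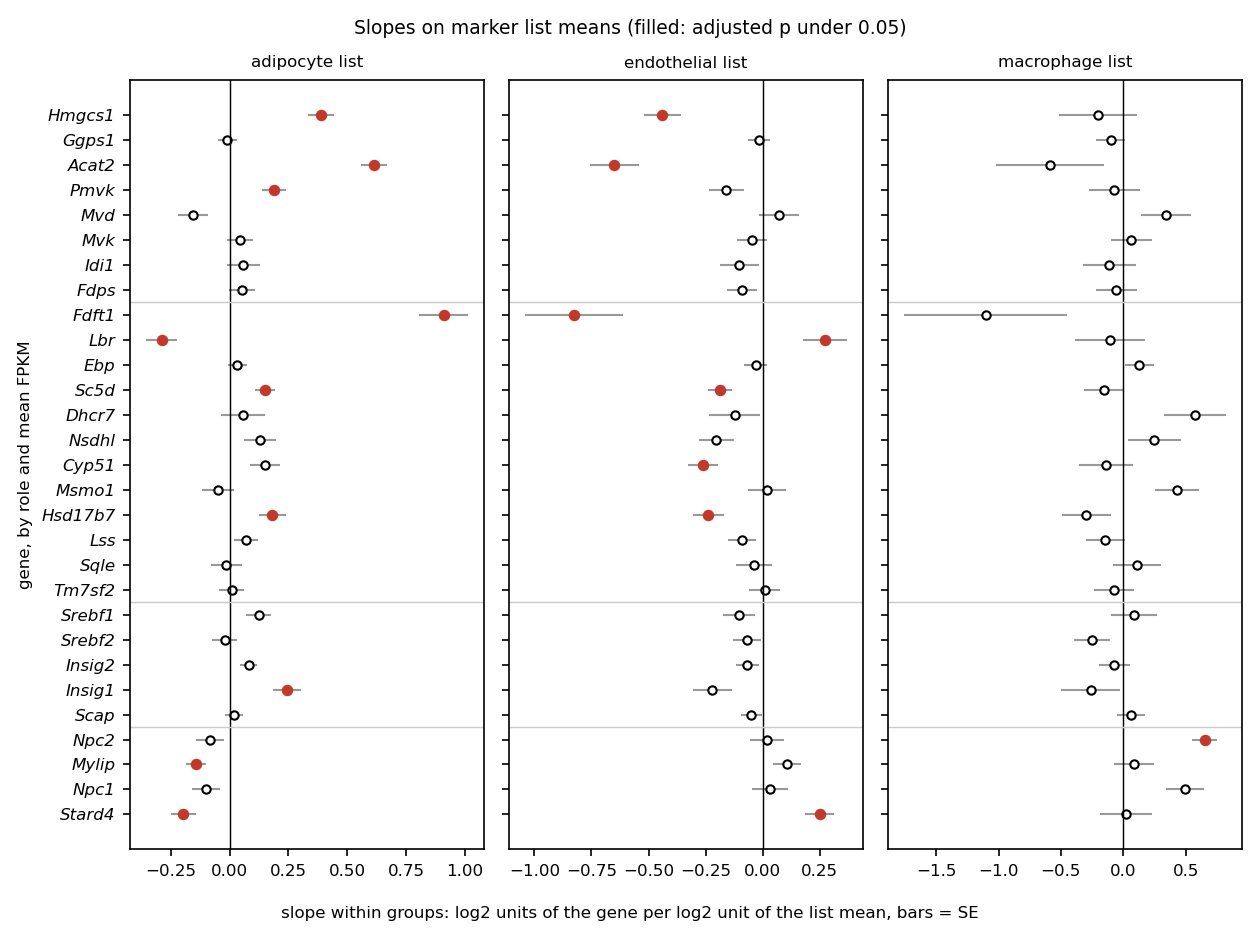
Slope of each gene (rows) on the mean of the adipocyte, endothelial and macrophage lists (panels) within groups, with its SE, filled at an adjusted p under 0.05. Acat2, Fdft1 and Hmgcs1 have positive slopes on the adipocyte list and negative ones on the endothelial list, Lbr and Stard4 the reverse, and Npc2 is the one filled point for the macrophage list.

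With endothelial markers the directions were turned round. Called slopes were negative for Acat2 (-0.65 ± 0.11, limma adjusted p = 0.00026), Hmgcs1 (-0.44 ± 0.08), Fdft1 (-0.83 ± 0.21), Cyp51 (-0.26 ± 0.07), Hsd17b7 (-0.24 ± 0.07) and Sc5d (-0.19 ± 0.05), and positive for Stard4 (0.25 ± 0.06) and Lbr (0.27 ± 0.10). That is 8 of 29 (27.6%), beside 30.3% of all genes (14.9% positive, 15.4% negative), so this share too is near that of all genes. Cyp51 had 2.20, 3.52, 2.43 and 1.20 FPKM in the dual mice, 2.60, 2.57, 4.84 and 2.73 in LNA489, 1.93, 3.89, 1.44 and 1.95 in LNA92a, 0.972, 3.19, 4.15 and 1.21 in HDL and 1.37, 2.15, 3.12 and 1.07 in saline mice. Cyp51, the demethylase of lanosterol, was at most 1.21 FPKM in HDL 3, Saline 24, dual 21 and HDL 23, the 4 mice with the highest endothelial list means apart from LNA92a 18. With all 4 list means in 1 model, none of the 8 endothelial slopes called above passed in limma. Among them were -0.21 for Acat2, -0.20 for Hmgcs1, -0.32 for Cyp51, 0.02 for Fdft1 and 0.06 for Lbr. The lowest adjusted p of the 8 was 0.0537, for Cyp51. The 1 of the 29 genes called on the endothelial list there was another gene, and 6 were called on the adipocyte list. In that model the adipocyte slopes of Acat2 (0.55 ± 0.08), Fdft1 (0.99 ± 0.18) and Hmgcs1 (0.33 ± 0.08) were of about the size given above. The endothelial slopes of Stard4, Fdft1 and Sc5d did not pass in limma without HDL 4 (0.18, -0.66 and -0.16), and that of Lbr did not pass when any of 11 libraries was left out, with 0.19 without HDL 4 and 0.24 to 0.29 without LNA92a 12, LNA92a 17, LNA92a 18, HDL 3, HDL 23, LNA489 13, LNA489 19, dual 15, dual 21 or Saline 24. On log2(FPKM + 0.1) those of Sc5d and Hsd17b7 did not pass (-0.15 and -0.26).

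Npc2 was the one gene of the 29 called on the macrophage list (3.45%, beside 2.61% of all genes, 2.52% positive and 0.0831% negative), with a slope of 0.65 ± 0.10 (limma adjusted p = 0.0011). Npc1 had 0.50 ± 0.15 (adjusted p = 0.106) and Msmo1, the oxidase that removes sterol methyl groups, 0.43 ± 0.18 (adjusted p = 0.319). Msmo1 had 1.88, 4.78, 1.183 and 2.33 FPKM in the dual mice, 2.16, 3.24, 2.81 and 0.905 in LNA489, 0.743, 3.09, 1.21 and 1.53 in LNA92a, 2.28, 1.67, 2.66 and 1.99 in HDL and 1.20, 2.75, 3.55 and 1.66 in saline mice. Msmo1 was highest in dual 10 and lowest in LNA92a 5. The call of Npc2 rested in part on LNA489 13, the mouse with the highest macrophage list mean, since without it the slope was 0.57 with an adjusted p of 0.0645, in a range of 1.7e-06 to 0.0645 over all alternatives. On the adrenal cortex list 0 of 29 genes were called by limma and 25 of all genes (0.148%), with 1 of 29 and 836 of all at an unadjusted p under 0.05. The steepest there was Dhcr7 at 0.27 ± 0.06 (limma adjusted p = 0.165), which voom called (slope 0.29, adjusted p = 0.0333, in a range of 0.00048 to 1.00 over all alternatives). Without dual 10 and Saline 2 the slope of Dhcr7 was -0.16 ± 0.35, so it rests on those mice, whose adrenal list means were 11.8 in dual 10 and 12.6 in Saline 2 where no other mouse exceeded 6.73. What part cell type makeup has in these slopes was not tested.

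**Figure D5:**
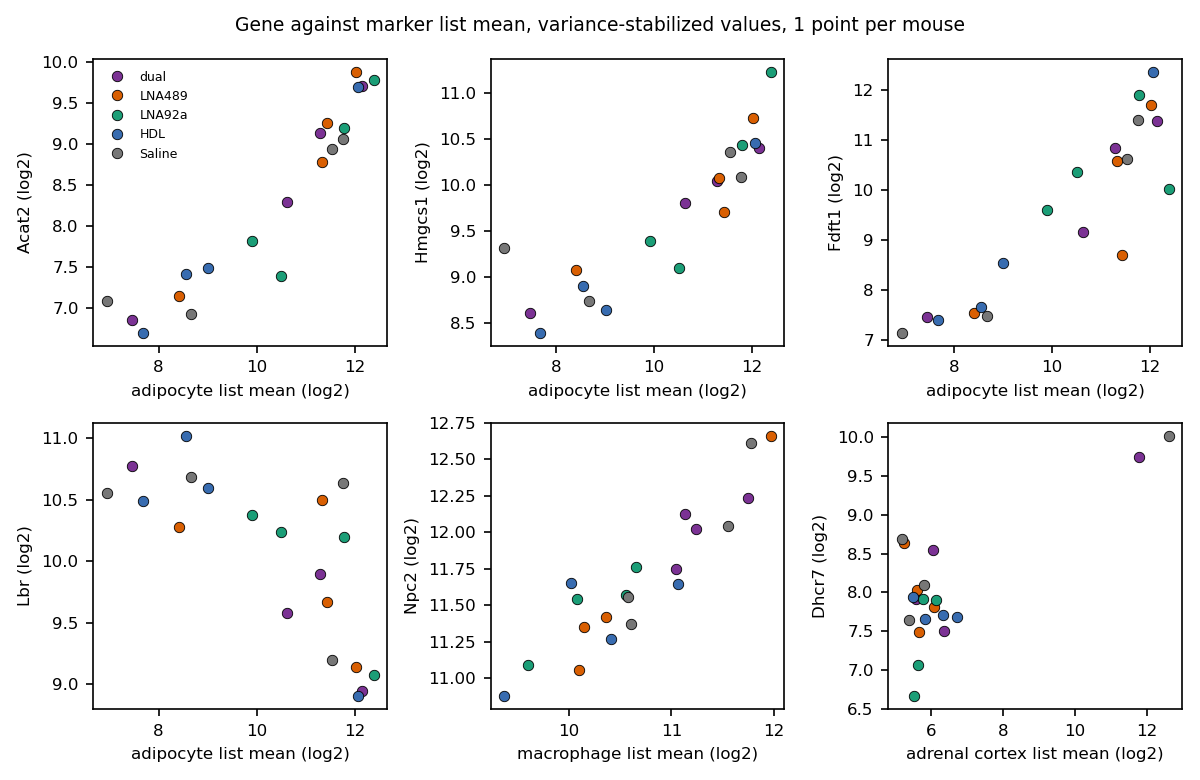
Variance-stabilized log2 value of 6 genes against the mean of a marker list, with 1 point per mouse coloured by group. Acat2, Hmgcs1 and Fdft1 lie higher and Lbr lower towards a high adipocyte list mean, Npc2 lies higher with the macrophage list, and Dhcr7 is high in the 2 mice at the right, dual 10 and Saline 2.

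Members of the pathway did not move as 1 block. Over the 406 pairs of the 29 genes the median Pearson's r across the 20 mice was 0.108, with 245 pairs above 0. The pairs share libraries and their marker content, and these r are descriptions. The highest was 0.939 for Acat2 and Hmgcs1, neighbours at the start of the pathway, followed by 0.851 for Acat2 and Fdft1, and the lowest was -0.794 for Acat2 and Stard4. Lbr and Stard4 had r = 0.783.

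Among 8 pairs chosen from the pathway, its control and transport, not all of them adjacent steps, 2 passed. Npc1 and Npc2 had Pearson's r = 0.83 (permutation p = 1e-05, the smallest that 100000 permutations can give, adjusted p = 8e-05) and Spearman's rho = 0.76 (permutation p = 0.0002, adjusted p = 0.0008). Without the 2 farthest mice r was 0.67, and with group means removed 0.83. Hmgcs1 and Insig1, whose promoters are printed above, had r = 0.74 (permutation p = 8e-05, adjusted p = 0.00032) and rho = 0.78 (permutation p = 8e-05, adjusted p = 0.00064). Its value was 0.61 leaving out the 2 farthest mice and 0.70 with group means removed. Hmgcs1 and Insig1 both had called positive slopes on fat markers. Npc1 and Npc2 both had positive slopes on macrophage markers, of which only that of Npc2 was called. No r was computed with list means removed, so shared marker content remains in these r. Insig1 and Insig2 had r = 0.38 (permutation p = 0.0978, adjusted p = 0.261) and rho = 0.48 (permutation p = 0.035, adjusted p = 0.0932). The remaining r were 0.10 for Hmgcs1 and Sqle, -0.04 for Idi1 and Fdps, -0.10 for Sqle and Lss, -0.18 for Hmgcs1 and Srebf2 and 0.01 for Srebf1 and Srebf2, with rho of 0.006, -0.02, -0.03, -0.14 and -0.20. Their permutation p lay between 0.405 and 0.983, and adjusted p between 0.809 and 0.983.

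Related genes outside the 29 were read from 3 further lists, of which no gene passed in any comparison between groups. Among 14 genes of fatty acid synthesis driven by SREBP1, those above the HDL mean numbered 14 in the dual group, 13 in LNA489 and 13 in LNA92a, with medians of 0.64, 0.88 and 0.81, and 12 of 14 were lower in HDL than in saline with a median of -0.28. Medians over all genes in these comparisons were -0.03, -0.05, -0.06 and 0.03, with 46.4%, 44.8%, 44.2% and 54.0% of all genes higher. Of the 14 genes, 0 had an unadjusted p under 0.05 in any of these comparisons. On fat markers 10 of the 14 had a called positive slope and 1 a negative one, beside 18.9% and 20.9% of all genes. Scd1, the desaturase that makes monounsaturated fat, had 859 ± 548 FPKM in the dual group, 879 ± 599 in LNA489, 667 ± 575 in LNA92a and 459 ± 656 in HDL (SD, n = 4 each). Its SD within each of these groups exceeded the differences between their means.

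Of 10 genes of cholesterol efflux and LXR, the sterol-activated receptor, 8 averaged above HDL in the dual group (median 0.58), 8 higher in LNA489 (0.28) and 4 in LNA92a (-0.04), and 8 were lower in HDL than in saline (-0.61). Pltp, the phospholipid transfer protein, had 133 ± 45.7 FPKM in the dual group and 62.2 ± 35.8 in HDL, a difference of 1.161 ± 0.48 (limma adjusted p = 0.998). Against saline mice, which had 136 ± 94.1 FPKM, the HDL mice differed by -1.09 ± 0.48 (limma adjusted p = 0.9997). Cd36, a scavenger receptor and fatty acid transporter, differed by 1.44 ± 0.61 in the dual group and by 1.43 ± 0.61 in LNA489 (limma adjusted p = 0.998 and 0.920), with 224.5 ± 68.9 FPKM in the dual group, 211 ± 78.55 in LNA489 and 101 ± 84.5 in HDL. On the macrophage list 3 of these 10 genes had a called positive slope, beside 2.52% of all genes.

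Of 24 further genes of sterol handling, 16 averaged above HDL in the dual group (median 0.24), 12 in LNA489 (0.02) and 10 in LNA92a (-0.07), and 19 were lower in HDL than in saline (-0.27). Lrp1, a large lipoprotein receptor, had 108 ± 23.0 FPKM in LNA489 and 52.5 ± 31.1 in HDL, a difference of 1.29 ± 0.50 (limma adjusted p = 0.920), and differed by -1.05 ± 0.50 in HDL against saline. Lipa, the lysosomal lipase that frees cholesterol from its esters, had 135 ± 54.9 FPKM in the dual group and 58.5 ± 34.8 in HDL (1.25 ± 0.63, limma adjusted p = 0.998). Of the 24, 6 had a called positive slope on macrophage markers, beside 2.52% of all genes. On fat markers 4 had a called positive and 5 a called negative slope, beside 18.9% and 20.9% of all genes, so that share is near that of all genes.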

How the data were processed

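Bulk RNA of 20 mice (5 groups of 4, each library a separate mouse) was compared from 2 deposited tables. The authors deposited FPKM, and they deposited variance-stabilized values on a log2 scale. The submitters' processing notes name cutadapt 1.16, STAR 2.5.3a, FastQC, featureCounts 1.15.29, DESeq2 1.18.1 and the build GRCm38.p5, and the strand of counting is not given in the sources used here. FPKM times gene length gave whole reads within 0.1 for 100% of values checked (genes of at most 3000 bases, at most 1000 reads), which set the depths.

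Genes with a mean of at least 0.5 FPKM were fitted on the variance-stabilized values with limma 3.58.1 (R 4.3.3), all 5 groups in 1 fit, with Benjamini-Hochberg adjustment over 16848 genes and a threshold of 0.05. Slopes on the mean of the endothelial, adipocyte, macrophage or adrenal cortex list were fitted with group terms. Correlations used 100000 permutations over 8 pairs, adjusted over the pairs. The fits were tested on simulated data. Python 3.11.15, pandas 2.3.3, scipy 1.17.1 and matplotlib 3.10.9 were used.

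Values in every library are given for 8 fixed genes (Hmgcs1, Sqle, Srebf2, Srebf1, Insig1, Npc1, Npc2, Stard4) and for the 3 genes of lowest p in each main comparison, the non-additive contrast, the F-test and each slope. Those of the related lists were picked among the 3 of lowest p in a comparison. The 29 genes and all lists were chosen with earlier results of these data known. Alternatives were other value scales, filters, voom on recovered reads, library weights, centring, only the groups compared, list means as covariates, no group term and leaving out each library.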

Additional observations from a re-analysis of the deposited data

Results flagged for a closer look

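In 9 of 145 sets of 4 mice (29 genes in 5 groups, 6.21%) 1 mouse stood apart from the other 3 on the variance-stabilized scale, where chance alone gives about 1 in 20. The values that follow are in FPKM. Dual 10 was high for Ebp, the sterol isomerase, at 10.439, where the other dual mice had 6.303 to 7.652. Dual 21 was high for Stard4 at 5.333, beside 1.929 to 2.313. In LNA489, mouse 7 was high for Lss at 1.278, beside 0.63 to 0.892, and mouse 19 was low for Msmo1 at 0.905, beside 2.161 to 3.236. LNA92a 12 was high for Srebf1 at 43.664, beside 8.199 to 9.548, and low for Lbr at 7.208, beside 11.176 to 15.692. HDL 4 was high for Nsdhl at 2.798, beside 1.901 to 1.942. Saline 2 was low for Lbr at 7.486, beside 20.103 to 28.433, and Saline 24 was low for Mvd at 2.937, beside 4.005 to 5.194.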

How the results depend on the processing

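No gene passed in any group comparison under any alternative that was run, with 20 fits leaving out 1 library among them. With the 4 list means in 1 model the slopes called fell to 1562 genes (1 of the 29) for the endothelial and 3856 (6) for the adipocyte list. For the macrophage list they rose from 439 to 771 genes. On the adrenal cortex list 1 of the 29 was called there, beside 0 in the main fit. On log2(FPKM + 1) the endothelial list called 5 of the 29. For macrophages 2 of the 29 were called on log2(FPKM + 0.1) and 2 on log2(FPKM + 1), 753 genes (3 of the 29) with no group term, and 4122 (8) with library weights. For adrenal cortex 16 genes were called on log2(FPKM + 0.1), 5410 (7 of the 29) with library weights, 1 of the 29 with voom and 1 with no group term, and 0 genes without Saline 2 and dual 10, an alternative chosen after seeing the data. Library weights did not fully converge in some fits.

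Leaving out 1 library, 3702 to 6225 genes (4 to 10 of the 29) were called on the endothelial list, 4788 to 7131 (8 to 13) on the adipocyte list, 101 to 816 (0 to 1) on the macrophage list and 6 to 30 (0 to 0) on the adrenal cortex list. On the macrophage list 101 genes were called without LNA489 13, 286 without Saline 9 and 816 without HDL 11. The 4 of the 29 on the endothelial list came without HDL 4, and the 6 genes on the adrenal cortex list without Saline 2.

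The signs that turned were those of Nsdhl in the dual group against HDL with list means as covariates (-0.0522), of the endothelial slope of Fdft1 with the 4 list means (0.0152), and of the adrenal slopes of Dhcr7 (-0.16) and Msmo1 (-0.36) without Saline 2 and dual 10. Correlations that turned were -0.25 for Hmgcs1 and Sqle without the 2 farthest mice, 0.10 there and 0.0562 on log2(FPKM + 0.1) for Idi1 and Fdps, 0.19 on log2(FPKM + 0.1) and 0.0143 with group means removed for Sqle and Lss, and -0.30 for Srebf1 and Srebf2 without the 2 farthest. Leaving out 1 library, r was -0.12 to 0.23 for Hmgcs1 and Sqle, -0.16 to 0.16 for Idi1 and Fdps, -0.399 to 0.0226 for Sqle and Lss and -0.35 to 0.16 for Srebf1 and Srebf2. The cause of these changes was not tested.

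No paired analysis was possible because each mouse has its own number and no number recurs between groups. With 4 mice a group, the median SE of a difference was 0.36 on the log2 scale. Genes under 1 FPKM rest on few reads, and so do some above it, such as Mvd with 13 to 177 reads per library.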
